A study of Drosophila melanogaster with 42 samples.

Results

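The genes described here are 10 genes of fat synthesis, fat storage and adipokinetic hormone signalling in Drosophila melanogaster: Akh, AkhR, bmm, Lsd-1, Lsd-2, mdy, Lpin, FASN1, ACC and Desat1. A member was any of these genes named alone by a probeset of the array, and all 10 of 10 were found, on 11 of 18769 probesets, among 11982 genes named in the same way. AkhR had 2 probesets and the other members 1 each, and no probeset with several gene names included a member. The levels come from Affymetrix Drosophila 2.0 arrays of whole adult females, 42 arrays in 14 groups of 3, with RNA of at least 75 females per sample, at 10 or 40 days of age. The 14 groups were 7 arms sampled at both ages. The yw/w1118 DR arm held flies of a mixed yw and w1118 background carrying the neuronal, drug-inducible Elav-GeneSwitch driver and the dSir2 EP insertion, kept on low calorie food with ethanol diluent. The dSir2 arm held the same genotype on high calorie food with RU486, the drug that switches the driver on, and the dSir2 control arm had that genotype on high calorie food with diluent, so it served as the control of both. The DN-Dmp53 arm (labelled p53 knockdown) carried the same driver with a dominant-negative Dmp53 transgene with RU486, and the p53 control arm was its diluent counterpart. The labels give a normal diet for both, and the sources used here do not settle whether their food was the high calorie food of the dSir2 arms. The Canton-S DR and Canton-S control arms were wild-type flies without these transgenes on low and high calorie food. Both transgenes were driven in adult neurons, whereas the RNA came from the whole body, and RU486 and transgene expression cannot be told apart in this design.

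Flies store surplus energy as triglyceride in lipid droplets, chiefly in the fat body, an organ with the functions of liver and adipose tissue. Acetyl-CoA carboxylase and fatty acid synthase build fatty acids, a desaturase introduces double bonds, and phosphatidic acid phosphatase and diacylglycerol acyltransferase place them in triglyceride, while perilipins coat the droplets and the lipase brummer empties them. Adipokinetic hormone, released by endocrine cells beside the heart in times of need, acts through a G protein-coupled receptor on the fat body to release stored fat and sugar, and is the fly counterpart of glucagon.

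Values are log2 GCRMA signals, for which an array-wide floor of 2.11 marks probesets without signal, and levels of different probesets are not comparable with each other. A member was called changed when limma gave an adjusted p under 0.05 over all probesets tested and a fold change over 1.5 (0.58 on the log2 scale). The first-named condition of each comparison is the numerator, and ± after a change gives its standard error. Pairwise correlations between arrays of a group ran from 0.9933 to 0.9993 over all probesets. On 5 of the 42 arrays transcripts of male organs were present in these female samples. The mean over 8 such genes was 3.27 to 3.96 on replicates 1 and 3 of DN-Dmp53 day 40, replicate 3 of Canton-S DR day 40 and replicates 2 and 3 of Canton-S control day 40, and at most 2.31 on the other arrays. Calls lost without these arrays are given below with the change in that fit. Leaving them out leaves a lone array in DN-Dmp53 and in Canton-S control flies at day 40. A call lost in a fit with a lone array cannot be put down to the arrays left out. The targeted genes were checked first. Sirt1, the current name of dSir2, averaged 11.69 ± 0.09 in dSir2 flies and 11.91 ± 0.18 in dSir2 control flies at day 10 (SD, n = 3 each), and so was not higher in the induced arm at that age. At day 40 it averaged 11.42 ± 0.03 in dSir2 and 11.38 ± 0.15 in dSir2 control flies, and the arrays overlapped (11.38 to 11.44 and 11.21 to 11.50). The bright p53 probeset averaged 10.05 ± 0.10 in DN-Dmp53 flies and 9.82 ± 0.09 in p53 control flies at day 10, and 9.89 ± 0.09 in DN-Dmp53 and 9.67 ± 0.09 in p53 control flies at day 40 (SD, n = 3 each), with all DN-Dmp53 arrays above all p53 control arrays at both ages. Its other probeset was at the floor on all arrays of both arms.

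Several of the members were called under DR at day 10 in both backgrounds. In yw/w1118 flies at day 10, AkhR, Lsd-1, Lpin and FASN1 were higher in DR than in dSir2 control flies, so 4 of 10 members rose and none fell, against 18.3% of 9350 genes that rose and 14.9% that fell. In Canton-S flies at day 10 the same 4 genes rose and Lsd-2 fell, which is 4 and 1 of 10, against 17.9% of 9650 genes that rose and 17.7% that fell. At day 40 in Canton-S flies AkhR and Lpin rose and Lsd-2 fell, 2 and 1 of 10, against 13.6% and 13.0% of 9462 genes. At day 40 in yw/w1118 flies limma called 0 of 10 members, against 0.0516% of 9685 genes higher and 0.0207% lower. A single member (Lpin) had an unadjusted p under 0.05 there, and the methods' t-test, a two-sided test at p under 0.01 with the same fold threshold, also called 0. The median change over the 10 members was 0.38 in yw/w1118 and 0.31 in Canton-S flies at day 10, where the median over all genes tested was -0.011 and -0.003, and 0.21 and 0.07 at day 40, where it was -0.004 and 0. At day 10, DR arrays lay wholly above the controls for 7 members and below for 1 in yw/w1118 flies, against 67.8% of genes without overlap. In Canton-S flies it was 5 and 2, against 66.4%. At day 40 it was 2 and 0 in yw/w1118 flies, against 29.9%, and 4 and 1 in Canton-S flies, against 54.8%. In whole-fly RNA, a change in the number of cells of a type and a change in RNA per cell cannot be told apart.

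With neuronal dSir2 at day 10, Lsd-1, Lpin and FASN1 rose, 3 of 10 members higher and 0 lower, against 6.63% and 5.69% of 9494 genes. At day 40 the same contrast called 0 of 10 members with limma, 3 with an unadjusted p under 0.05 (AkhR, Lsd-1 and Lpin, all higher) and 0 with the methods' t-test, against 0% of 9680 genes in either direction. The median change of the members was 0.34 at day 10 and 0.10 at day 40. Arrays lay wholly above the controls for 6 members and below for 1 at day 10, against 46.7% of genes without overlap. At day 40 it was 3 and 0, against 15.4%. With dSir2 at day 10, 4 of 6 muscle genes and 2 of 5 midgut genes also rose, 3 of 10 ovary and germline markers fell, and 1 of 5 fat body markers rose and 1 fell. Array means of the muscle genes were 9.53 to 9.68 in dSir2 and 8.73 to 8.99 in dSir2 control flies, and the part of these shifts in the member changes was not tested. DN-Dmp53 called 0 of 10 members at day 10, against 1.18% of 9395 genes higher and 1.12% lower, and 0 of 10 at day 40, against 0.0104% of 9631 genes higher and 0% lower. At each of these ages 3 members had an unadjusted p under 0.05, and the methods' t-test called 0. Arrays lay wholly above the controls for 4 members and below for 0 at day 10, against 24.7% of genes without overlap. At day 40 it was 1 and 2, against 21%. Replicates of equal number correlated between DN-Dmp53 and p53 control arrays, and the values printed for DN-Dmp53 leave this pairing out. A fit that paired them also called 0 members at both ages. The dSir2 and yw/w1118 DR contrasts share their control arrays, so their values are not independent of each other.

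**Figure D1:**
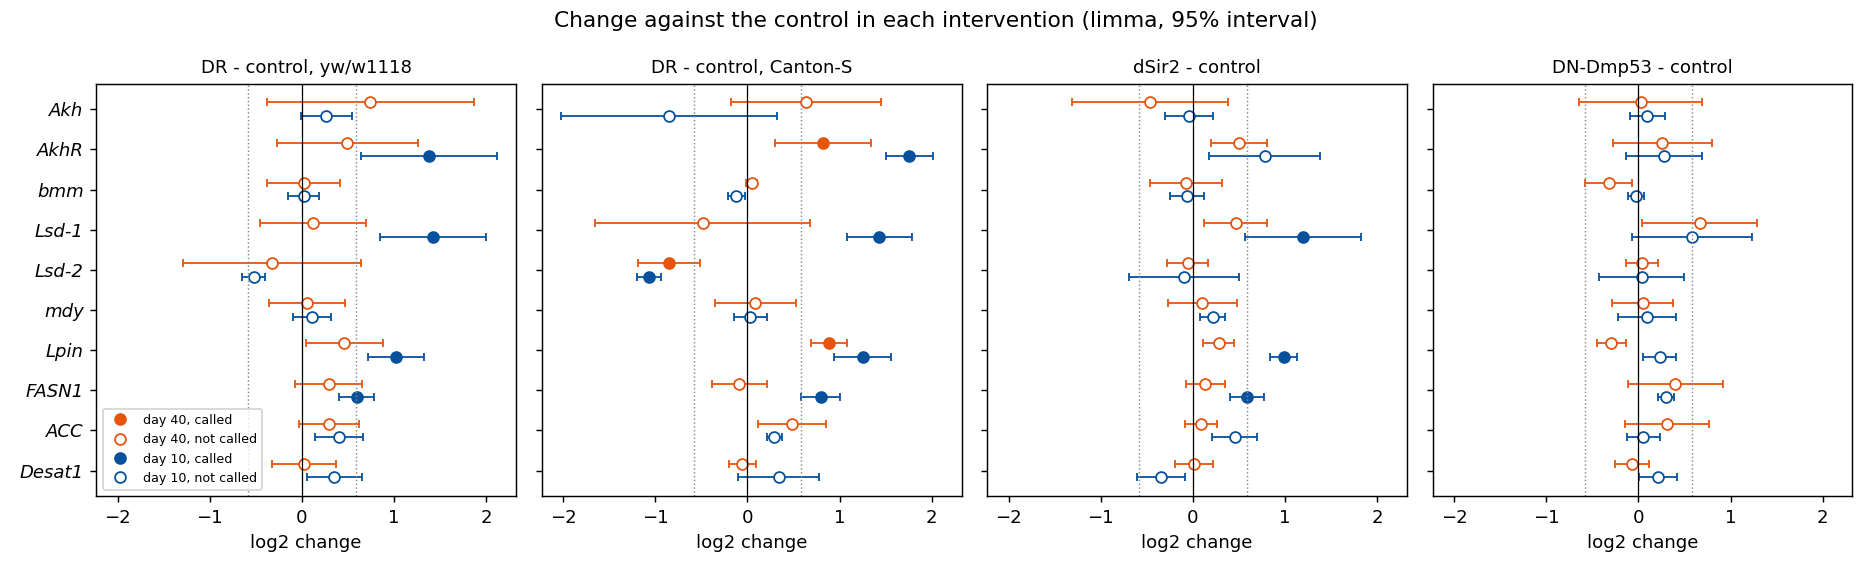
Log2 change of each member (rows) in each intervention against its control, with the 95% interval from limma, at day 40 (orange) and day 10 (blue). Filled points passed the adjusted p and 1.5-fold thresholds, dotted lines mark a 1.5-fold change, and at day 10 Lsd-1 lay at 1.42 in yw/w1118 DR, 1.43 in Canton-S DR and 1.20 in dSir2 flies.

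The gene of the hormone receptor rose under DR at day 10, and that of the hormone was not called. AkhR, the receptor through which adipokinetic hormone triggers lipolysis, read 10.51, 10.05 and 9.87 in yw/w1118 DR flies at day 10, against 8.31, 9.10 and 8.88 in dSir2 control flies. All DR arrays lay above all control arrays, a change of 1.38 ± 0.28 (2.60-fold, adjusted p = 0.0135). In Canton-S flies at day 10, AkhR read 10.04, 10.34 and 10.04 under DR, against 8.39, 8.42 and 8.34 in the controls, with wider separation and less spread. The change was 1.76 ± 0.10 (3.38-fold, adjusted p = 0.00059), the largest rise of a member in any of the 8 contrasts of an intervention with its control. Replicate 1 of dSir2 control day 10 was the lowest AkhR value of all 42 arrays, and leaving out any 1 array at day 10 kept the call in both backgrounds. In yw/w1118 flies the methods' t-test did not call it.

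At day 40, AkhR read 9.95, 9.75 and 10.14 in Canton-S DR flies, against 8.85, 9.07 and 9.47 in Canton-S controls, a change of 0.82 ± 0.20 (adjusted p = 0.0346). The groups did not overlap, but this call was kept in only 1 of 6 fits without 1 array. Without the 3 arrays with male-organ transcripts, which leaves a lone control array, the change was 1.01. In yw/w1118 flies at day 40 the receptor read 10.67, 9.82 and 9.80 under DR, against 9.40, 9.63 and 9.80 in dSir2 controls, without overlap although the lowest DR and highest control arrays both round to 9.80, and the change of 0.49 had a 95% interval of -0.28 to 1.25. With dSir2 induction AkhR read 9.67, 9.51 and 9.45 at day 10, against 8.31, 9.10 and 8.88 in the controls. The arrays did not overlap there, but the change of 0.78 ± 0.23 had an adjusted p of 0.0747 and was not called, while it was called with arrays centred on bright probesets (0.87, adjusted p = 0.044) and with all 14 groups in 1 fit (0.78, adjusted p = 0.00538). At day 40 the dSir2 arrays (10.14, 10.16 and 10.03) were again above the controls by 0.50 ± 0.12 (adjusted p = 0.349). The DN-Dmp53 changes were 0.28 at day 10 and 0.26 at day 40, with overlap at both ages. By replicate number, DN-Dmp53 was higher in every pair at day 10 (9.79, 9.65 and 9.48 against 9.58, 9.42 and 9.09). This was not so at day 40 (10.19, 9.96 and 10.20 against 9.46, 10.12 and 9.99). The second AkhR probeset stayed between 2.23 and 3.09 on all arrays, near the floor, and none of its changes reached 1.5-fold.

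Akh, which encodes the hormone itself, was dim, from 2.18 to 6.63 over the 42 arrays, and read the same value of 4.41 on 9 arrays of 6 groups. Under DR at day 10 it read 4.61, 4.45 and 4.79 in yw/w1118 flies, against 4.41, 4.41 and 4.25 in dSir2 controls, and 3.13, 3.11 and 2.18 in Canton-S DR flies, against 4.16, 2.96 and 3.86 in Canton-S controls. All yw/w1118 DR arrays were above their controls, whereas the Canton-S arrays overlapped. Neither difference was called (0.26, adjusted p = 0.099, and -0.85, adjusted p = 0.189), and the test of the difference between the backgrounds gave -1.11 ± 0.47 (Canton-S minus yw/w1118, adjusted p = 0.237). At day 40 the change was 0.74 in yw/w1118 flies (95% interval -0.38 to 1.86) and 0.63 in Canton-S flies (95% interval -0.18 to 1.45), and the DR and control arrays overlapped in both backgrounds. No change of Akh was called in the RU486 arms, with values between -0.47 (dSir2, day 40) and 0.10 (DN-Dmp53, day 10).

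The perilipin genes moved in opposite directions in Canton-S flies at day 10. Lsd-1, the perilipin that in flies serves hormone-stimulated lipolysis, read 11.83, 11.34 and 11.45 in yw/w1118 DR flies at day 10, against 9.89, 10.48 and 10.00 in dSir2 controls. It read 10.78, 10.84 and 10.73 in Canton-S DR flies, against 9.51, 9.07 and 9.46 in Canton-S controls. The groups were apart in both backgrounds, by 1.42 ± 0.22 in yw/w1118 (2.68-fold, adjusted p = 0.00559) and 1.43 ± 0.13 in Canton-S flies (2.70-fold, adjusted p = 0.0015), and the difference between the backgrounds was 0.01 with a 95% interval of -0.59 to 0.62. In dSir2 flies at day 10 Lsd-1 read 11.17, 11.11 and 11.67 against the same control arrays, a change of 1.20 ± 0.24 (2.29-fold, adjusted p = 0.0291) that was kept in 2 of 6 fits without 1 array and lost without dSir2 replicate 1 or 2 or control replicate 1 or 3. In DN-Dmp53 flies the day 10 values were 10.80, 10.71 and 11.46, against 10.28, 10.29 and 10.66 in p53 controls. Those arrays were also apart, yet the change of 0.58 ± 0.25 had an adjusted p of 0.347. At day 40 DN-Dmp53 flies read 11.20, 10.75 and 11.12, against 9.96, 10.67 and 10.45 in p53 controls, again apart and not called (0.66 ± 0.24, adjusted p = 0.353). Both of these DN-Dmp53 fits leave out the pairing by replicate number. By that number DN-Dmp53 was higher in every pair at both ages, and the paired fit called neither change.

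At day 40 the diet difference in Lsd-1 was not called. The yw/w1118 values were 11.21, 10.52 and 10.74 under DR and 10.50, 10.71 and 10.90 in controls, a change of 0.12 ± 0.22. In Canton-S flies it read 9.16, 9.66 and 10.70 under DR, against 10.21, 10.12 and 10.64 in controls, a change of -0.48 ± 0.44. Both pairs of groups overlapped, and the highest Canton-S DR array was the one of that group with male-organ transcripts. The effect of DR at day 40 minus that at day 10 was -1.30 ± 0.32 in yw/w1118 flies (adjusted p = 0.0473) and -1.92 ± 0.48 in Canton-S flies (adjusted p = 0.0409). Each was kept in 2 of 12 fits without 1 array. In dSir2 flies at day 40 Lsd-1 read 11.17, 11.03 and 11.30, against 10.50, 10.71 and 10.90 in controls, a change of 0.46 ± 0.13 without overlap (adjusted p = 0.418).

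Lsd-2, the perilipin that in flies shields stored fat from lipases and is also abundant in the germline, fell under DR in Canton-S flies. At day 10 it read 13.16, 13.26 and 13.14 under DR, against 14.31, 14.27 and 14.18 in controls, and fell by 1.07 (SE 0.05, 2.10-fold lower, adjusted p = 0.00044). At day 40 it read 12.67, 12.93 and 13.04 under DR, against 13.58, 13.74 and 13.88 in controls, and fell by 0.85 (SE 0.13, adjusted p = 0.0112). No array overlapped at either age, and every fit without 1 array kept both calls. Without the 3 arrays with male-organ transcripts, which leaves a lone control array, the day 40 change was -0.78.

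The yw/w1118 response was smaller. At day 10 Lsd-2 read 13.81, 13.79 and 13.83 in yw/w1118 DR flies, against 14.43, 14.29 and 14.28 in dSir2 controls. The arrays did not overlap and the adjusted p was 0.00164, but the change of -0.52 ± 0.05 (1.44-fold lower) was under the fold threshold. The Canton-S effect minus the yw/w1118 effect was -0.54 ± 0.07 (adjusted p = 0.00505), also under 1.5-fold. At day 40 the yw/w1118 DR arrays read 13.96, 13.76 and 12.74, against 13.88, 13.66 and 13.89 in controls, with replicate 3 far below the others and a 95% interval of -1.29 to 0.64 for the change of -0.32. The RU486 arms gave changes of -0.10 (dSir2) and 0.04 (DN-Dmp53) at day 10, and -0.06 and 0.04 at day 40, and all 4 overlapped with their controls.

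Markers of ovary and germline were lower under DR as well. The mean of 10 such genes was 10.79 to 10.87 on Canton-S DR arrays, against 11.50 to 11.59 on Canton-S control arrays at day 10, and 11.16 to 11.23 on yw/w1118 DR arrays, against 11.62 to 11.70 on dSir2 control arrays. Of these 10 genes, 5 fell and none rose in each background at day 10, and 6 fell and 1 rose in Canton-S flies at day 40. The share of all genes that fell was 14.9% in yw/w1118 and 17.7% in Canton-S flies at day 10, and 13.0% in Canton-S flies at day 40. None of the 10 was near the floor in any group. The yolk protein genes Yp1, Yp2 and Yp3 were not called in these contrasts (mean 15.38 to 15.82 over all arrays). The part of ovary RNA in the Lsd-2 result was not tested.

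Brummer, encoded by bmm, is the triglyceride lipase of the fly fat body, and its level varied the least of the members. It lay between 10.96 and 11.71 on all 42 arrays, its group means spanned 0.43 on the log2 scale, and no change reached 1.5-fold in any of the 23 comparisons. In Canton-S flies at day 10 it read 11.29, 11.24 and 11.31 under DR, against 11.39, 11.45 and 11.35 in controls. That gap of -0.12 ± 0.03 had no overlap and an adjusted p of 0.0411. At day 40 the diet change was 0.05 ± 0.02, and the difference between the ages, 0.16 ± 0.04, had an adjusted p of 0.0396. The yw/w1118 diet change at day 10 was 0.02, with a 95% interval of -0.16 to 0.19. With DN-Dmp53 at day 40 bmm read 11.16, 11.31 and 11.19, against 11.71, 11.40 and 11.51 in p53 controls, apart but not called (-0.32 ± 0.10, adjusted p = 0.301). That fit leaves out the pairing by replicate number.

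**Figure D2:**
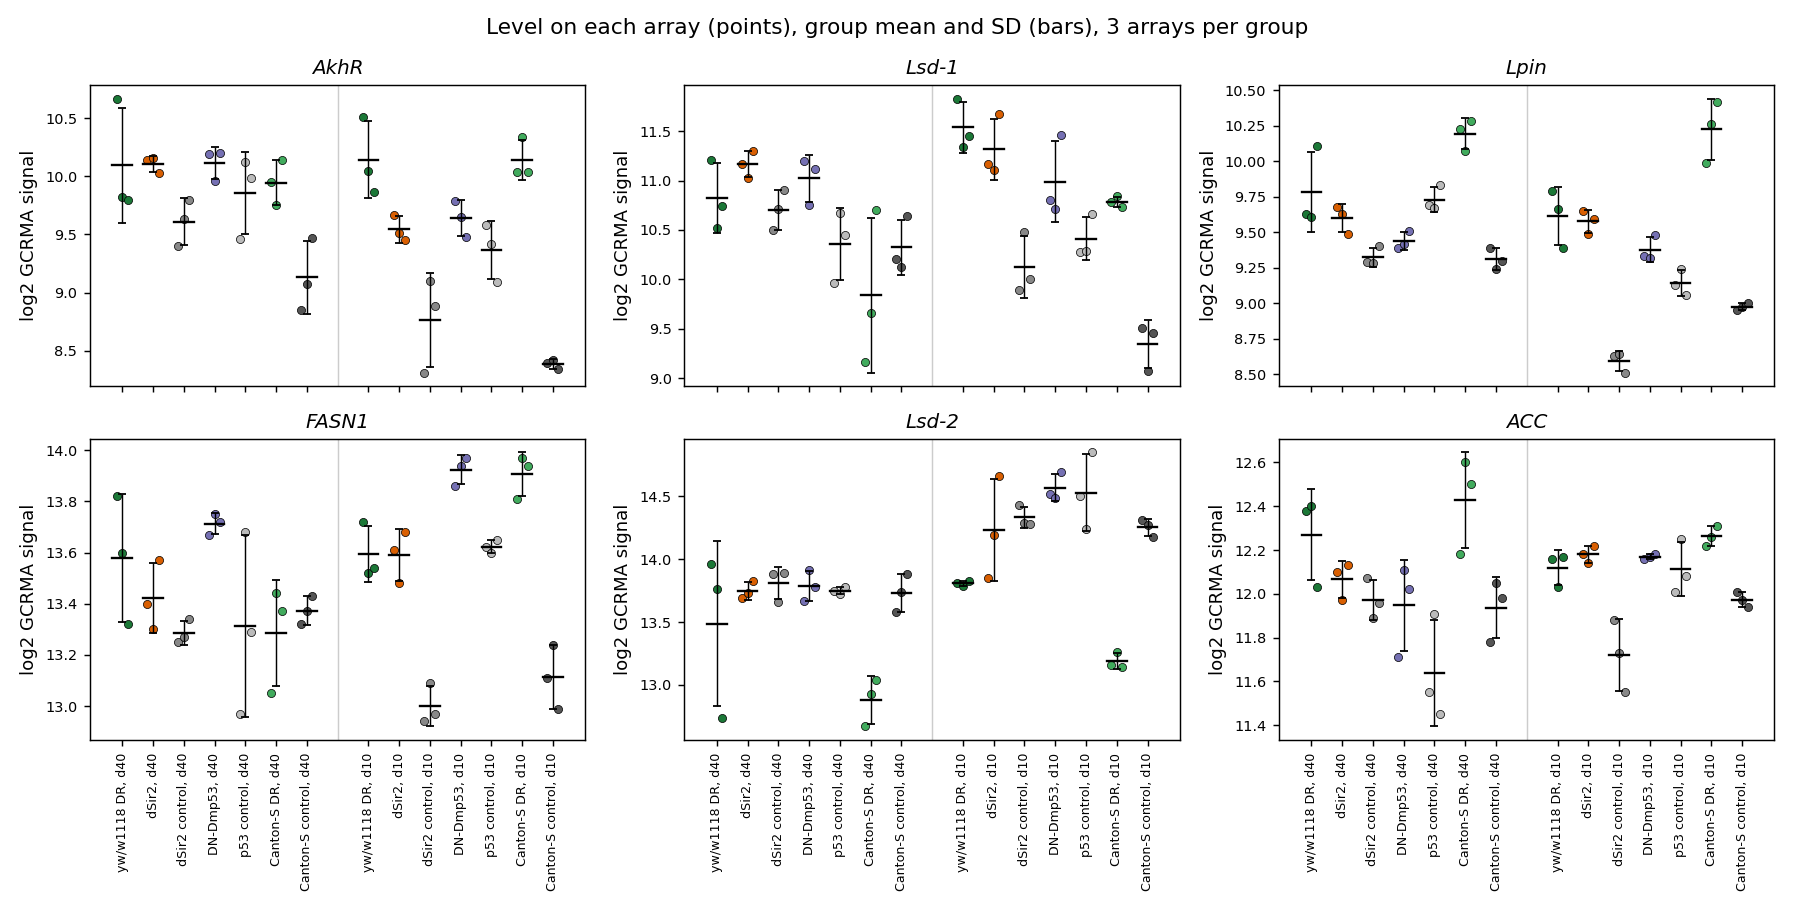
Log2 GCRMA signal of AkhR, Lsd-1, Lpin, FASN1, Lsd-2 and ACC on each array (points) with the mean and SD of each group of 3 (bars), day 40 left and day 10 right of the grey line. At day 10 all Canton-S DR arrays lay above all Canton-S control arrays in every panel but Lsd-2, where they lay below. Over all 10 members 5 lay wholly above and 2 wholly below, against 66.4% of 9632 genes without overlap.

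Among the enzymes of triglyceride assembly, Lpin was called in 3 of the diet contrasts and mdy in none. Lpin, the lipin homologue that dephosphorylates phosphatidic acid to diacylglycerol, read 9.79, 9.66 and 9.39 in yw/w1118 DR flies at day 10, against 8.63, 8.64 and 8.51 in dSir2 controls. The rise was 1.02 ± 0.12 (2.03-fold, adjusted p = 0.00264). In Canton-S flies at day 10 it read 9.99, 10.26 and 10.42 under DR, against 8.95, 8.97 and 9.00 in controls, a rise of 1.25 ± 0.12 (2.38-fold, adjusted p = 0.00154). All DR arrays lay above all control arrays in both backgrounds, and every fit without 1 array kept both calls.

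At day 40 Lpin read 10.23, 10.07 and 10.28 in Canton-S DR flies, against 9.39, 9.24 and 9.30 in controls, a rise of 0.89 ± 0.07 (1.85-fold, adjusted p = 0.00362). It was kept in 6 of 6 fits without 1 array. Without the 3 arrays with male-organ transcripts, which leaves a lone control array, the change was 0.76. At day 40 yw/w1118 flies read 9.63, 9.61 and 10.11 under DR, against 9.29, 9.28 and 9.40 in controls, without overlap, and the change of 0.46 ± 0.16 had an adjusted p of 0.221. With dSir2 at day 10 Lpin read 9.65, 9.49 and 9.59 against the same controls as yw/w1118 DR, a rise of 0.99 ± 0.06 (1.98-fold, adjusted p = 0.00269). That rise was kept in 6 of 6 fits without 1 array. At day 40 Lpin read 9.68, 9.63 and 9.49 with dSir2, against 9.29, 9.28 and 9.40 in controls, apart but not called (0.28 ± 0.07, adjusted p = 0.349). The dSir2 effect at day 40 minus that at day 10 was -0.70 ± 0.09 (adjusted p = 0.00623), kept in 12 of 12 fits without 1 array.

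The dSir2 control arrays at day 10 held the lowest Lpin levels of the series. With DN-Dmp53 Lpin read 9.33, 9.32 and 9.48 at day 10, against 9.13, 9.24 and 9.06 in p53 controls, and 9.39, 9.42 and 9.51 at day 40, against 9.69, 9.67 and 9.83 in p53 controls. The arrays were apart in opposite directions at the 2 ages, neither change was called (0.23 ± 0.07, adjusted p = 0.188, and -0.29 ± 0.06, adjusted p = 0.217), and the difference between them was -0.53 ± 0.09 (adjusted p = 0.0297, under 1.5-fold). These fits leave out the pairing by replicate number.

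The midway gene mdy encodes diacylglycerol acyltransferase, which makes triglyceride from diacylglycerol. Its level ran from 9.59 to 10.52 over all arrays and none of its 23 changes was called. With dSir2 at day 10 it read 10.22, 10.30 and 10.30, against 9.97, 10.09 and 10.12 in controls, 0.21 ± 0.05 higher (1.16-fold, adjusted p = 0.0433). The diet changes of mdy lay between 0.03 (Canton-S, day 10) and 0.11 (yw/w1118, day 10), and the widest of their 95% intervals was -0.35 to 0.53 (Canton-S, day 40).

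In fatty acid synthesis, FASN1 rose under DR at day 10. FASN1, a fatty acid synthase of the fat body, read 13.72, 13.52 and 13.54 in yw/w1118 DR flies, against 12.94, 13.09 and 12.97 in dSir2 controls, and 13.81, 13.97 and 13.94 in Canton-S DR flies, against 13.11, 13.24 and 12.99 in Canton-S controls. The rise was 0.59 ± 0.07 in yw/w1118 flies (1.51-fold, adjusted p = 0.00292) and 0.79 ± 0.08 in Canton-S flies (1.73-fold, adjusted p = 0.00186). With dSir2 at day 10 it read 13.61, 13.48 and 13.68 against the dSir2 controls above, a rise of 0.59 ± 0.07 (adjusted p = 0.0095). All DR and dSir2 arrays were above their controls at day 10. The yw/w1118 and dSir2 values lie close to the fold threshold, and 3 and 2 of their 6 fits without 1 array kept the call. Both were lost without dSir2 control replicate 1 or 3.

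At day 40 FASN1 read 13.05, 13.44 and 13.37 in Canton-S DR flies, against 13.32, 13.37 and 13.43 in controls, and the groups overlapped. The effect of DR at day 40 minus that at day 10 was -0.88 ± 0.15 (adjusted p = 0.00976), kept in 12 of 12 fits without 1 array but not without the 3 arrays with male-organ transcripts (-0.86). The yw/w1118 diet change at day 40 was 0.29 ± 0.14 with overlap, and the difference between the ages was -0.30 with a 95% interval of -0.66 to 0.06. The dSir2 effect at day 40 minus that at day 10 was -0.45 ± 0.11 (adjusted p = 0.0513). In DN-Dmp53 flies at day 10 FASN1 read 13.86, 13.94 and 13.97, against 13.62, 13.60 and 13.65 in p53 controls. This was the only member with an adjusted p under 0.05 in that contrast (0.30 ± 0.03, 1.23-fold, adjusted p = 0.0228).

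ACC, the acetyl-CoA carboxylase that supplies malonyl-CoA to fatty acid synthase, was not called in any comparison but was higher wherever FASN1 rose. It read 12.16, 12.03 and 12.17 in yw/w1118 DR flies and 12.18, 12.14 and 12.22 in dSir2 flies, against 11.88, 11.73 and 11.55 in dSir2 controls. In Canton-S flies it read 12.22, 12.26 and 12.31 under DR, against 12.01, 11.97 and 11.94 in controls. All 3 sets were apart, with changes of 0.40 ± 0.10 (yw/w1118 DR, adjusted p = 0.0242), 0.46 ± 0.09 (dSir2, adjusted p = 0.0305) and 0.29 ± 0.03 (Canton-S DR, adjusted p = 0.00214), each under 1.5-fold. At day 40 in Canton-S flies ACC was higher by 0.48 ± 0.14 under DR, without overlap (adjusted p = 0.0552).

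Desat1 encodes the delta-9 desaturase that makes monounsaturated fatty acids. With dSir2 at day 10 it read 13.53, 13.63 and 13.57, against 13.73, 13.96 and 14.08 in controls, below every control array but not called (-0.35 ± 0.10, adjusted p = 0.0724). Under DR at day 10 it read 14.40, 14.23 and 14.19 in yw/w1118 flies, against 13.73, 13.96 and 14.08 in the same controls. That change was 0.35 ± 0.11 (adjusted p = 0.0538), with all DR arrays above all controls. The values for Canton-S DR flies were 14.60, 14.89 and 14.28, against 14.30, 14.28 and 14.17 in controls, and they overlapped.

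Between day 40 and day 10, 2 of 10 members were called in each of the 3 control arms. In dSir2 control flies AkhR and Lpin rose, 2 of 10 members higher and 0 lower, against 15.2% and 17.5% of 9541 genes. In p53 control flies Lpin rose and Lsd-2 fell, 1 and 1 of 10, against 11.6% and 10.7% of 9574 genes. In Canton-S control flies AkhR and Lsd-1 rose, 2 and 0 of 10, against 7.44% and 2.97% of 9354 genes. A count of 1 or 2 among 10 members is not far from these shares. Arrays of the 2 ages did not overlap for 61.2% of genes in dSir2, 52.4% in p53 and 45.4% in Canton-S controls. In the arms under DR or RU486 that share ran from 41.9% (Canton-S DR) to 50.2% (dSir2).

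In the 4 arms under DR or RU486 the calls with age were as follows. Desat1 rose in dSir2 flies, 1 and 0 of 10, against 9.84% and 7.67% of 9716 genes. Lsd-2 fell in DN-Dmp53 flies, 0 and 1 of 10, against 7.72% and 3.72% of 9541 genes. Akh rose and FASN1 fell in Canton-S DR flies, 1 and 1 of 10, against 6.08% and 4.55% of 9743 genes. In yw/w1118 DR flies limma called 0 of 10, with 2 members at an unadjusted p under 0.05 and 0 by the methods' t-test, against 4.13% and 4.71% of 9551 genes. Whether the arms differ in age response was tested only through the interactions with diet and transgene. Those with an adjusted p under 0.05 are all listed under the results flagged for a closer look. They include none for Akh or Desat1, and none for Lpin with diet, so a difference between arms in these age changes was not shown.

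**Figure D3:**
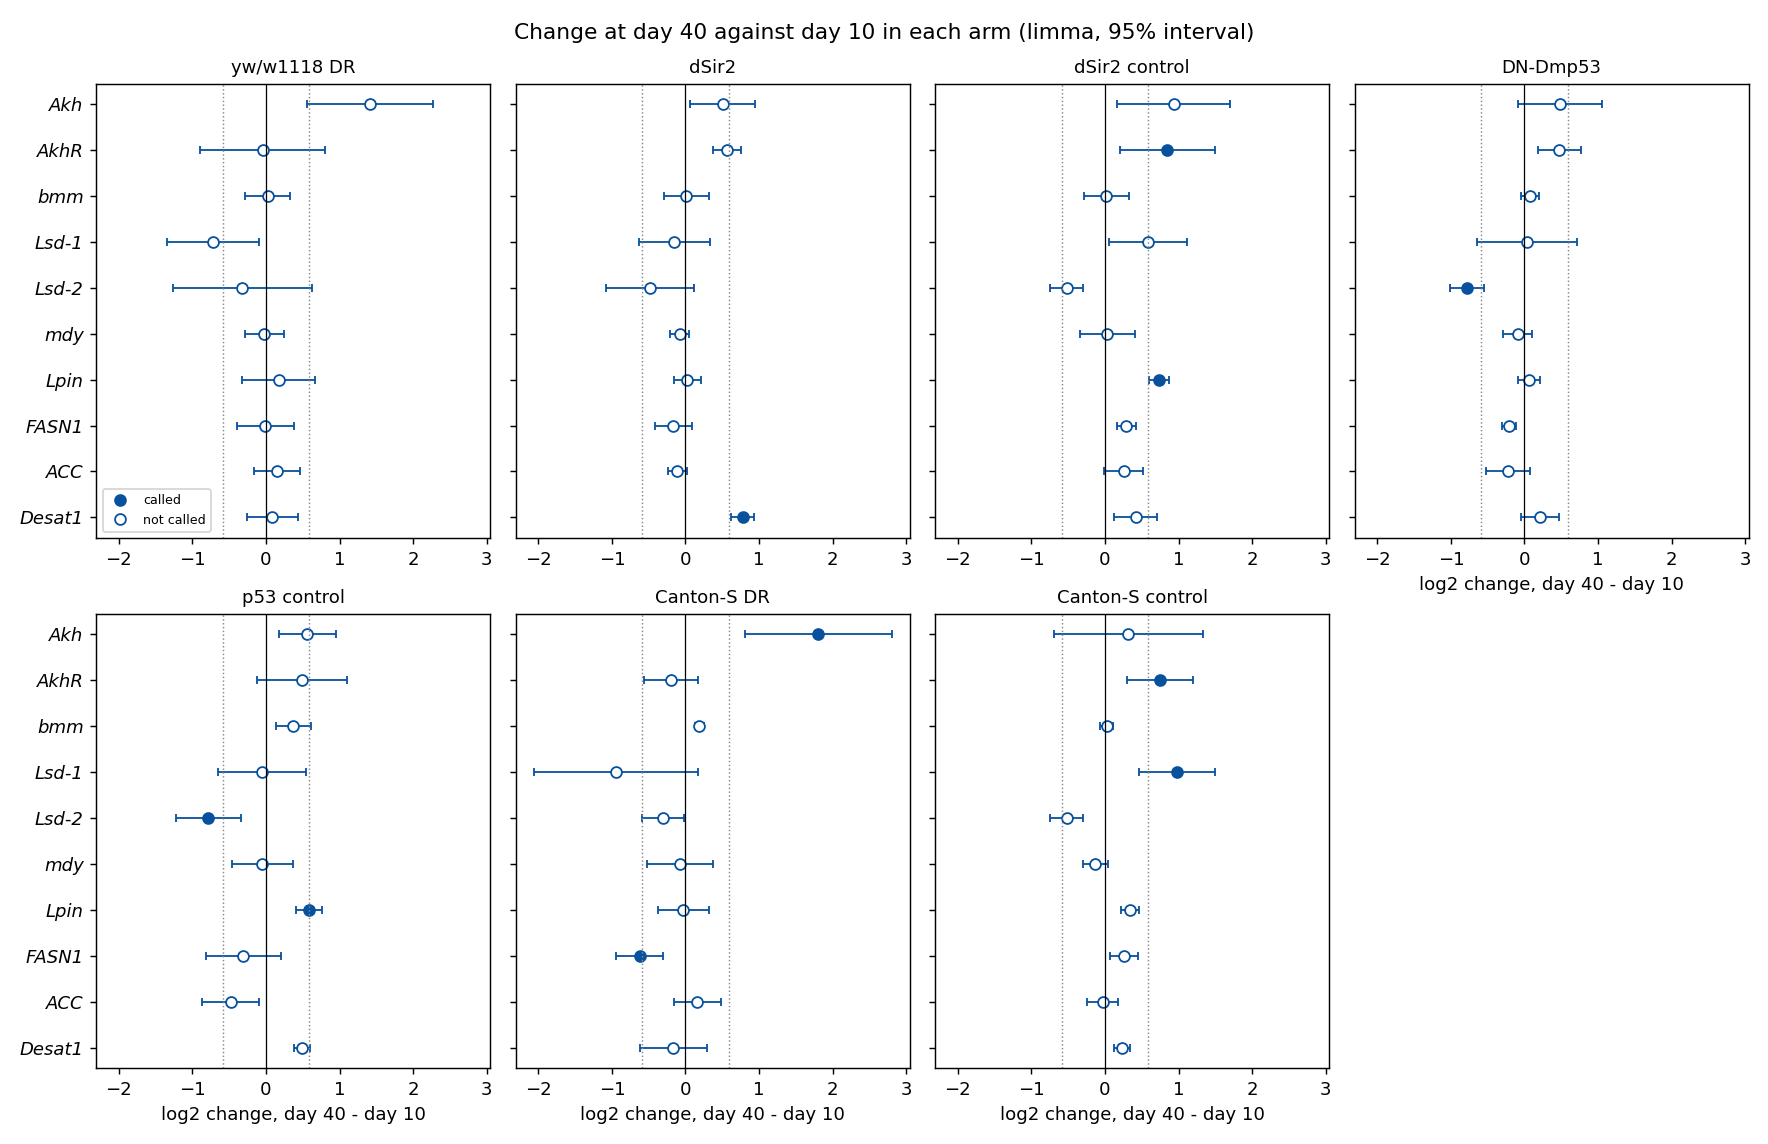
Log2 change of each member (rows) at day 40 against day 10 in each arm, with the 95% interval from limma; filled points were called, and dotted lines mark a 1.5-fold change. Akh lay above 0 in all 7 arms, from 0.32 in Canton-S controls to 1.80 in Canton-S DR flies, and Lsd-2 lay below 0 in all 7.

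Akh read 5.49, 5.95 and 6.63 at day 40 in yw/w1118 DR flies, against 4.61, 4.45 and 4.79 at day 10, and the change of 1.41 ± 0.32 had an adjusted p of 0.0537. In Canton-S DR flies Akh read 4.41, 4.30 and 5.12 at day 40, against 3.13, 3.11 and 2.18 at day 10, a rise of 1.80 ± 0.38 (3.49-fold, adjusted p = 0.0466). The arrays of the 2 ages were apart in both DR arms, but the Canton-S call was lost in all 6 fits without 1 array, the change was 1.55 and not called when the day 40 array with male-organ transcripts was the one left out, and replicate 3 at day 10 was within 0.2 of the floor. In the other 5 arms the change was 0.93 in dSir2 controls, 0.56 in p53 controls, 0.51 in dSir2 flies, 0.49 in DN-Dmp53 flies and 0.32 in Canton-S controls. Of these, p53 controls reached an adjusted p under 0.05 (0.0491, 1.48-fold). Their day 10 arrays read 4.41, 4.41 and 4.21, where 4.41 is the value that Akh repeated across groups.

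AkhR read 9.40, 9.63 and 9.80 at day 40 in dSir2 controls, against 8.31, 9.10 and 8.88 at day 10, a rise of 0.85 ± 0.25 (adjusted p = 0.0473), kept in 2 of 6 fits without 1 array. It read 8.85, 9.07 and 9.47 at day 40 in Canton-S controls, against 8.39, 8.42 and 8.34 at day 10, a rise of 0.74 ± 0.17 (adjusted p = 0.0463), kept in 1 of 6. That rise was 0.46 and not called without the 2 day 40 arrays with male-organ transcripts. Arrays did not overlap in either arm. In dSir2 and DN-Dmp53 flies the age changes of 0.57 and 0.48 had adjusted p of 0.00978 and 0.0452 but were under 1.5-fold. In DR flies AkhR was at 9.87 or above on all day 10 arrays, and the age change was -0.04 in yw/w1118 and -0.19 in Canton-S flies. The DR effect at day 40 minus that at day 10 was -0.94 ± 0.23 in Canton-S (adjusted p = 0.0364, kept in 2 of 12 fits without 1 array, and -0.75 and not called without the 3 arrays with male-organ transcripts) and -0.89 ± 0.42 in yw/w1118 flies (adjusted p = 0.238).

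Lpin read 9.29, 9.28 and 9.40 at day 40 in dSir2 controls, against 8.63, 8.64 and 8.51 at day 10, a rise of 0.73 ± 0.05 (adjusted p = 0.00099). In p53 controls it read 9.69, 9.67 and 9.83 at day 40, against 9.13, 9.24 and 9.06 at day 10, a rise of 0.59 ± 0.07 (adjusted p = 0.00576) kept in 3 of 6 fits without 1 array. In Canton-S controls the change of 0.34 ± 0.05 had an adjusted p of 0.0163 but was under 1.5-fold. All 3 control arms were without overlap between ages, and the age changes in the 4 arms under DR or RU486 lay between -0.03 and 0.17, with overlap in each.

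The mean of Lsd-2 was lower at day 40 in every arm. It read 13.67, 13.91 and 13.78 in DN-Dmp53 flies at day 40, against 14.52, 14.49 and 14.69 at day 10, and fell by 0.78 (SE 0.09, adjusted p = 0.0113). It read 13.75, 13.72 and 13.78 in p53 controls at day 40, against 14.50, 14.24 and 14.85 at day 10, and also fell by 0.78 (SE 0.17, adjusted p = 0.0275). Neither pair overlapped. The p53 control call was kept in 2 of 6 fits without 1 array, and the DN-Dmp53 value was -0.66 and not called without the 2 day 40 arrays with male-organ transcripts. In dSir2 controls and Canton-S controls the changes of -0.52 and -0.52 had adjusted p of 0.00858 and 0.0236 but were under 1.5-fold. Of the 10 ovary and germline markers, 6 fell with age in p53 controls and 4 in DN-Dmp53 flies and none rose, against 10.7% and 3.72% of all genes that fell. Their array means were 10.71 to 10.85 in p53 controls at day 40, against 11.43 to 11.53 at day 10. In DN-Dmp53 flies they were 10.91 to 11.05 at day 40, against 11.38 to 11.44 at day 10. The part of these markers in the Lsd-2 change was not tested.

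Lsd-1 rose with age in Canton-S controls. It read 10.21, 10.12 and 10.64 in controls at day 40, against 9.51, 9.07 and 9.46 at day 10, a rise of 0.97 ± 0.20 (adjusted p = 0.0355). In Canton-S DR flies it read 9.16, 9.66 and 10.70 at day 40, against 10.78, 10.84 and 10.73 at day 10, a change of -0.94 ± 0.42 (adjusted p = 0.209). The first pair was apart, its call was lost in all 6 fits without 1 array, and the change was 0.86 and not called without the 2 day 40 arrays with male-organ transcripts. In the second pair all day 40 arrays lay below the day 10 arrays, and without the day 40 array with male-organ transcripts the change was -1.37 and was called (adjusted p = 0.0395).

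FASN1 read 13.05, 13.44 and 13.37 at day 40 in Canton-S DR flies, against 13.81, 13.97 and 13.94 at day 10, and fell by 0.62 (SE 0.12, adjusted p = 0.0402), a call lost in all 6 fits without 1 array (-0.66 without the day 40 array with male-organ transcripts). Desat1 read 14.26, 14.46 and 14.33 at day 40 in dSir2 flies, against 13.53, 13.63 and 13.57 at day 10, a rise of 0.78 ± 0.06 (1.71-fold, adjusted p = 0.00482) kept in 6 of 6. The day 10 arrays of that arm held the lowest Desat1 values of the series. In dSir2, p53 and Canton-S controls Desat1 was higher at day 40 by 0.42, 0.49 and 0.23, all with adjusted p under 0.05 (0.0383, 0.00293 and 0.0302) and all under 1.5-fold. mdy was not called with age in any arm, with changes between -0.13 and 0.03, and bmm was higher at day 40 by at most 0.37 (p53 controls, adjusted p = 0.0392).

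**Figure D4:**
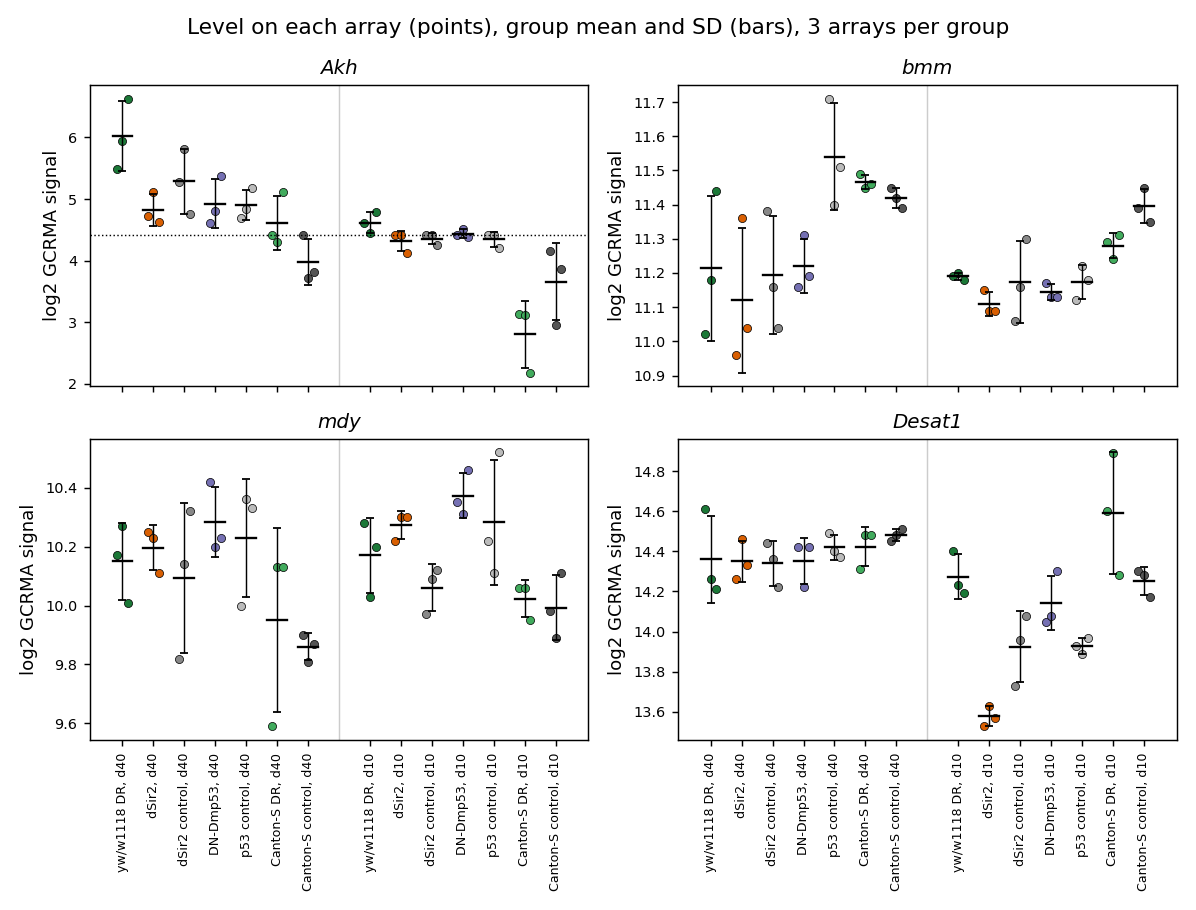
Log2 GCRMA signal of Akh, bmm, mdy and Desat1 on each array (points) with the mean and SD of each group of 3 (bars), day 40 left and day 10 right of the grey line. The dotted line marks 4.41, the value that Akh took on 9 arrays, and the 3 dSir2 arrays at day 10 have the lowest Desat1 signals, 13.53 to 13.63.

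The tests of a difference between 2 effects gave few calls among the members. Between Canton-S and yw/w1118 flies the DR effect called 0 of 10 members at day 10, against 1.73% of 9932 genes more positive and 1.85% more negative in Canton-S flies, and 0 of 10 at day 40, against 1.73% and 2.75% of 10084 genes. At an unadjusted p under 0.05 there were 2 members at day 10 (Akh and Lsd-2) and 1 at day 40 (Lpin), and the methods' t-test was not applied to differences between effects. For DR at day 40 against day 10, 0 members were more positive and 1 (Lsd-1) more negative in yw/w1118 flies, against 2.10% and 3.05% of 9945 genes. In Canton-S flies 0 were more positive and 3 (AkhR, Lsd-1 and FASN1) more negative, against 3.29% and 5.32% of 9961 genes. For dSir2 1 member (Lpin) was more negative and 0 more positive, against 2.21% and 2.15% of 10097 genes. For DN-Dmp53 0 members were called, with 3 at an unadjusted p under 0.05 (all more negative), against 1.14% of 9976 genes more positive and 0.772% more negative.

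Canton-S controls were also set against dSir2 controls, a contrast in which strain, transgenes and diluent cannot be told apart. Limma called 0 of 10 members at day 10, against 4.49% of 9356 genes higher and 5.15% lower, with 5 at an unadjusted p under 0.05, and 0 of 10 at day 40, against 5.41% and 6.83% of 9565 genes, with 1 (Akh) at an unadjusted p under 0.05. The methods' t-test called 0 at both ages. Arrays of the 2 control arms did not overlap for 45.5% of genes at day 10 and 44.8% at day 40. Lpin was higher in Canton-S controls at day 10 by 0.38 ± 0.04 (adjusted p = 0.00626, under 1.5-fold), where all Canton-S arrays (8.95 to 9.00) were above all dSir2 control arrays (8.51 to 8.64). At day 40 Akh read 4.41, 3.71 and 3.81 in Canton-S controls, against 5.28, 5.82 and 4.76 in dSir2 controls, apart but not called (-1.31 ± 0.35, adjusted p = 0.0633).

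Over the 14 group means, AkhR, Akh, Lsd-1, Lsd-2 and Lpin had the widest spans. Akh spanned 3.22 on the log2 scale, with yw/w1118 DR day 40 highest (mean 6.03) and Canton-S DR day 10 lowest (2.81). Lsd-1 spanned 2.19, between yw/w1118 DR and Canton-S controls at day 10, and AkhR spanned 1.76 between yw/w1118 DR and Canton-S controls at day 10. Lsd-2 spanned 1.69, from DN-Dmp53 day 10 to Canton-S DR day 40, and Lpin 1.63, from Canton-S DR day 10 to dSir2 control day 10. Desat1 spanned 1.01, FASN1 0.92, ACC 0.79, mdy 0.51 and bmm 0.43. When the groups were put in order of their means, all 13 pairs of neighbours overlapped for Akh, AkhR, Lsd-1, mdy and ACC, and 11 or 12 of 13 for the other 5 members. For Lpin the separated neighbours were p53 controls above Canton-S controls and these above dSir2 controls, all at day 10.

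As a description, the genes most like each member over the 14 group means were sought among 4723 genes whose group means spanned at least 1 on the log2 scale. These groups share control arms, background and age, so the correlations carry no test. For AkhR they were CG11147 (r = 0.961), CG44085 (r = 0.960) and CG5646 (r = 0.952), and for Lpin CG2681 (r = 0.962), CAH1 (r = 0.955) and CG9813 (r = 0.949). For Lsd-2 a spliceosome subunit gene (r = 0.978) came before Nf-YA (r = 0.977) and PolH (r = 0.971), and for Desat1 they were BomS6 (r = 0.930), CG32195 (r = 0.897) and the lipophorin receptor gene LpR2 (r = 0.896). For Akh, Lsd-1, FASN1, ACC, mdy and bmm the best matches were CG30002 (r = 0.906), CG17751 (r = 0.919), vig (r = 0.902), Muc68D (r = 0.892), CG1774 (r = 0.918) and CG10383 (r = 0.878). Among the members themselves the highest correlation was that of AkhR with Lpin (r = 0.79) and the lowest that of Lsd-2 with Lpin (r = -0.80).

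The wider pathway was read from lists of genes around the members. Besides FASN1, ACC and Desat1, 9 genes of fatty acid synthesis were tested under DR at day 10, of which 2 rose and 1 fell in each background. The synthase genes FASN2 and FASN3 rose by 1.09 and 1.13 in yw/w1118 flies and by 1.23 and 1.32 in Canton-S flies, all with adjusted p of at most 0.00485. The genes that fell were SCAP (-0.87, adjusted p = 0.00593), which escorts the lipid regulator SREBP, in yw/w1118 flies, and Men (-0.63, adjusted p = 0.0015), the malic enzyme that supplies NADPH, in Canton-S flies.

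Of 8 other genes of triglyceride synthesis, 0 rose and 1 fell in yw/w1118 flies under DR at day 10, and 2 rose and 2 fell in Canton-S flies. For comparison, 18.3% of all genes rose and 14.9% fell in yw/w1118 flies, and 17.9% rose and 17.7% fell in Canton-S flies. Agpat1, an acyltransferase that makes the substrate of lipin, fell in both (-0.89, adjusted p = 0.00366, and -1.14, adjusted p = 0.00061). Dgat2, another diacylglycerol acyltransferase gene, fell in Canton-S flies at day 10 (-2.07, adjusted p = 0.00609) and at day 40 (-2.29, adjusted p = 0.0172), in contrasts where mdy was not called. Of 6 further genes on a list of droplet genes and of lipases in general, 2 rose and 0 fell in yw/w1118 flies. Those that rose were the lipase genes Lip4 (1.08) and mag (0.79). Whether their changes concern stored or digested fat was not tested. In Canton-S flies 2 rose and 1 fell, and those that rose were Lip4 (0.77) and Pcyt1 (0.78), an enzyme gene of phosphatidylcholine synthesis.

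Downstream of the receptor, Galphas and Galphaq, which encode G protein alpha subunits, rose under DR at day 10 in both backgrounds. Galphas rose by 1.32 in yw/w1118 and 1.39 in Canton-S flies, and Galphaq by 1.10 and 2.32 (adjusted p of at most 0.00166). Galphaq had 3 probesets and Sik3 had 2, and the value printed is that of the called probeset with the largest change. The 2 were the only ones of 5 further genes of AKH and energy signalling to rise, and Sik3, a kinase that in flies restrains fat mobilisation, fell in Canton-S flies (-0.85, adjusted p = 0.01). The effect on Galphaq in Canton-S minus that in yw/w1118 flies was 1.23 ± 0.14 (adjusted p = 0.00308). Of 11 fat hormones and regulators, 5 rose and 0 fell in yw/w1118 flies and 4 rose and 1 fell in Canton-S flies. The shares of all genes were 18.3% higher and 14.9% lower in yw/w1118 flies, and 17.9% and 17.7% in Canton-S flies. The sugar-responsive transcription factor gene sugarbabe (sug) rose by 1.59 and 2.48, limostatin (Lst), a secreted hormone, by 1.01 and 1.13, and the insulin-binding ImpL2 by 1.12 and 0.97, while tobi, a glucosidase gene regulated by AKH and insulin-like peptides, fell by 1.92 in Canton-S flies (adjusted p = 0.00393).

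Of 12 lipid transport genes, 4 rose and 0 fell in yw/w1118 flies and 6 rose and 0 fell in Canton-S flies under DR at day 10. Apoltp, which loads lipid onto circulating lipophorin, rose by 1.33 and 1.57, the lipocalin NLaz by 1.05 and 1.34, and LpR2 by 1.24 and 1.33. Of 11 beta-oxidation genes, 1 rose in yw/w1118 and 2 in Canton-S flies, led by the acyl-CoA oxidase gene Acox3 (1.20 and 1.38), and 0 fell. In these 2 diet contrasts 18.3% and 17.9% of all genes rose, and 14.9% and 17.7% fell. With dSir2 at day 10, 3 of 12 lipid transport genes and 2 of 11 hormones and regulators rose and none fell, and 1 of 8 other triglyceride synthesis genes fell. Of all genes, 6.63% rose and 5.69% fell in that contrast. Named examples are Apoltp (1.11, adjusted p = 0.0027), mag (1.08, adjusted p = 0.00253), sug (0.95, adjusted p = 0.0103) and Agpat1 (-0.64, adjusted p = 0.00952). With DN-Dmp53 at day 10 LpR2 (1.01, adjusted p = 0.0146) and Lst (0.77, adjusted p = 0.023) rose and Dgat2 fell (adjusted p = 0.0346).

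Markers of other tissues moved with the diet as well. Of all genes, 18.3% rose and 14.9% fell in yw/w1118 flies, and 17.9% rose and 17.7% fell in Canton-S flies. All 6 muscle genes tested rose in yw/w1118 flies and 5 of 6 in Canton-S flies under DR at day 10, with array means of 10.27 to 10.52 in yw/w1118 DR and 8.73 to 8.99 in dSir2 control flies, and of 9.72 to 10.24 in Canton-S DR and 7.77 to 8.58 in Canton-S control flies. Of 5 midgut genes, 3 rose in yw/w1118 and 1 in Canton-S flies. Of the neuron markers, 4 of 6 tested rose in yw/w1118 flies, and 3 of 7 rose and 1 fell in Canton-S flies. The 5 fat body markers were mixed, with 1 higher and 1 lower in yw/w1118 flies and 1 higher and 2 lower in Canton-S flies, and Fbp1 was near the floor on all arrays. The part of these shifts in the changes of the members was not tested.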

How the data were processed

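Whole-female RNA of 14 groups of 3 was hybridised to Affymetrix Drosophila 2.0 arrays. The deposited values are log2 expression scores that the authors obtained by quantile normalization and GCRMA summary; no source used here gives a genome build. The methods describe the replicates as independent. Of 18952 probesets, 183 controls were left out, and 13647 of the remaining 18769 named 1 gene, 402 several and 4720 none in GEO's platform annotation, which can be old. Probesets with a group mean at or below the 25th percentile in every group fitted were treated as absent. The filter of the methods differs slightly, as it takes only means below that percentile as absent.

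Each comparison was fitted with limma 3.58.1 in R 4.3.3 on its own groups, with Benjamini-Hochberg adjustment over all probesets tested. A gene counted as called if any probeset naming it alone had an adjusted p under 0.05 and a fold change over 1.5. The methods' t-test, two-sided with p under 0.01, was one of the alternatives, beside no absent filter, all 14 groups in 1 fit, the replicate number as a block, arrays centred on the median of bright probesets (mean over 6), 1 probeset per gene and leaving out each array. A further alternative, leaving out arrays whose mean over 8 male-organ genes was above 3, was chosen after seeing the data. Members and lists were chosen with earlier results of these data known. Named were all members, up to 4 called genes per list and comparison with the largest changes, and the 3 most alike genes per member. For a listed gene with several probesets, the called probeset with the largest absolute change was printed. The fit was tested on simulated data. Tables were made with Python 3.11.15 and pandas 2.3.3.

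Replicate numbers come from the sample titles. In DN-Dmp53 and p53 control arrays, deviations from the group means correlated between equal numbers over 8168 bright probesets (0.66, 0.42 and 0.77 at day 10, 0.37, 0.39 and 0.24 at day 40). The changes, standard errors and adjusted p printed for DN-Dmp53 come from the fit that leaves this pairing out. The fit with the replicate number as a block called 0 members there as well. The number of arrays, 3 per group, limits the precision.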

Additional observations from a re-analysis of the deposited data

Results flagged for a closer look

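In all, 8 differences between effects in 2 ages or backgrounds had an adjusted p under 0.05 by limma's interaction test. Lsd-1 responded less to DR at day 40 than at day 10 by -1.30 in yw/w1118 flies (effects of 0.12 and 1.42) and by -1.92 in Canton-S flies (effects of -0.48 and 1.43). AkhR and FASN1 did so in Canton-S flies by -0.94 (0.82 and 1.76) and -0.88 (-0.09 and 0.79). The DR effect on bmm in Canton-S flies differed by 0.16 between the ages (0.05 at day 40 and -0.12 at day 10), under 1.5-fold.

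The dSir2 effect on Lpin differed by -0.70 between the ages (0.28 at day 40 and 0.99 at day 10), and the DN-Dmp53 effect on Lpin by -0.53 (-0.29 and 0.23). The DR effect on Lsd-2 at day 10 differed by -0.54 between backgrounds (-1.07 in Canton-S and -0.52 in yw/w1118 flies). The yw/w1118 DR and dSir2 tests share control arrays.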

How the results depend on the processing

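All 30 called changes of members kept their direction in all 366 alternative values, of which 246 kept the call and 120 did not. Of 2554 alternative values of the 200 changes not called, 35 were called, none with the opposite sign. Centring the arrays shifted the changes up by a median of 0.12 under DR at day 10 in both backgrounds, by 0.11 in Canton-S DR at day 40 and by 0.13 between ages in dSir2 controls, and the 30 called changes then had sizes of 0.60 to 1.93.

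The number of members called moved by over 1.5 times as follows; the cause was not tested. With the replicate block, the AkhR call for yw/w1118 DR at day 10 was lost (3 members instead of 4), and the count was 1 instead of 3 for dSir2 at day 10, 0 instead of 2 for age in Canton-S DR, p53 control and Canton-S control flies, and 0 instead of 1 for age in DN-Dmp53 flies and for DR by age in yw/w1118 flies. In the contrasts of 2 groups named here, correlations between equal numbers ran from -0.39 (age, p53 controls) to 0.38 (age, Canton-S controls). None of these contrasts was positive for every number. Correlations were weakly positive for every number in Canton-S DR at both ages and in dSir2 at day 40. The block did not change the count there. What the block shares beyond a number was not tested. Without the absent filter, which adds probesets to the adjustment, it was 0 for age in Canton-S DR, 1 in dSir2 controls, 1 in p53 controls, 0 in Canton-S controls, 0 for DR by age in yw/w1118 and 1 instead of 3 in Canton-S flies. With the methods' t-test it was 1 for age in Canton-S DR, 1 in dSir2 controls, 1 in p53 controls and 0 in Canton-S controls; it was not run for differences between effects. With centred arrays it was 1 for age in yw/w1118 DR, 2 in dSir2 flies, 4 in dSir2 controls and 1 for Canton-S against dSir2 controls at day 40. With all 14 groups in 1 fit it was 2 for age in yw/w1118 DR and 1 for Canton-S against dSir2 controls at day 10 and at day 40. Without the arrays with male-organ transcripts it was 1 for age in Canton-S DR. For Canton-S DR at day 40, where 2 DR arrays and 1 control array remain, the lone array is assumed to vary like the others. That setting also leaves a lone array for age in DN-Dmp53 and Canton-S control flies and for DR by age in Canton-S flies. Counts from fits with a lone array are not given.

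Leaving out 1 array at a time gave 1 to 3 members called for dSir2 at day 10, 3 to 4 for yw/w1118 DR at day 10, 5 to 5 for Canton-S DR at day 10 and 2 to 3 at day 40. For age it gave 0 to 2 in yw/w1118 DR (called without replicate 1 at day 40), 0 to 1 in Canton-S DR, 1 to 2 in dSir2 flies, 1 to 3 in dSir2 controls, 0 to 2 in p53 controls and 0 to 1 in Canton-S controls. It gave 0 to 1 for DR by age in yw/w1118, 1 to 3 in Canton-S flies, 0 to 1 for Canton-S against dSir2 controls at day 10, and 0 to 1 and 0 to 2 for DR by background at day 10 and day 40, the last without yw/w1118 DR replicate 3. The other counts did not move.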

Other observations

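The p53 control and dSir2 control flies were both of yw/w1118 background with diluent and a labelled normal diet. They differ in the transgene, the sources used here do not settle whether their food was the same, and the study does not set them against each other. At day 10 Lpin read 9.06 to 9.24 in p53 controls and 8.51 to 8.64 in dSir2 controls, FASN1 13.60 to 13.65 and 12.94 to 13.09, and ACC 12.01 to 12.25 and 11.55 to 11.88. These 3 of 10 members did not overlap between the controls and 7 did, against 38.2% of 9343 genes without overlap. FASN1 read 13.52 to 13.72 in yw/w1118 DR flies and 13.48 to 13.68 in dSir2 flies at that age, and both ranges overlap that of the p53 controls. None of these differences was tested. At day 40, Lpin (9.67 to 9.83 in p53 controls and 9.28 to 9.40 in dSir2 controls) and bmm (11.40 to 11.71 and 11.04 to 11.38) did not overlap, 2 of 10 members, against 25.8% of 9638 genes.

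In some arms tobi and LpR1 changed with age by more than any member of that arm. In yw/w1118 DR, dSir2, DN-Dmp53 and dSir2 control flies tobi was higher at day 40 by 5.25, 2.34, 1.22 and 2.29 (limma, adjusted p from 0.000241 to 0.033), and in Canton-S DR flies the lipophorin receptor gene LpR1 was lower by 3.74 (adjusted p = 0.00377). LpR1 had 2 probesets, and this value is that of the called probeset with the largest change. Limostatin (Lst) was higher at day 40 in yw/w1118 DR, dSir2, DN-Dmp53, dSir2 control and p53 control flies. The smallest of these 5 changes was in DN-Dmp53 (0.73) and the largest in p53 control flies. The DN-Dmp53 effect on Lst at day 40 minus that at day 10 was -1.27 ± 0.19 (limma, adjusted p = 0.0134). This difference exceeds in size the day 10 rise of 0.77, so the day 40 effect had the opposite sign, and it was not called.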
